A study of Rattus norvegicus with 2 samples.

Results

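Bile acids reach a cell's transcription and signalling through receptors of 2 kinds, and an acinar cell receives its orders to secrete through others. The 10 genes described here were chosen by name: the surface receptors Gpbar1 (TGR5) and S1pr2, the nuclear receptors Nr1h4 (FXR), Nr1i2 (PXR), Nr1i3 (CAR) and Vdr, the oxysterol receptors Nr1h2 (LXR beta) and Nr1h3 (LXR alpha), and the acinar secretagogue receptors Cckar and Chrm3. All 10 had a target on the array, out of 15577 genes that could be named, and each was read by 1 target of 5 probes designed on a curated RefSeq record. The cells were AR42J, a line from a rat tumour of the exocrine pancreas that is used as a stand-in for acinar cells. The TLC-S array carried RNA of AR42J cells exposed for 20 min to 200 µM taurolithocholic acid 3-sulfate (TLC-S), a sulfated secondary bile acid, and the control array carried RNA of AR42J cells that were left untreated. Both were cultured in the same medium with fetal bovine serum. No genotype or other agent is given for either group. With 1 array per group there was no replicate and no test: every ratio below compares these 2 arrays, and the number of arrays limits the precision.

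Gpbar1 couples to the stimulatory G protein and cyclic AMP, and in mouse acinar cells it has been linked to responses to TLC-S. S1pr2 binds sphingosine 1-phosphate and, in hepatocytes, conjugated bile acids. FXR, PXR, CAR, VDR and the LXRs act in the nucleus as partners of RXR, and in liver and gut they adjust the synthesis, transport and detoxification of bile acids and sterols. Cckar, the receptor of cholecystokinin, and Chrm3, the muscarinic receptor of acetylcholine, act through Gq proteins, phospholipase C and calcium release and are the classic triggers of enzyme secretion.

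An intensity was read beside the random-sequence probes of its array, which gave 40.5 in TLC-S and 44.7 in control, and beside 100, the value at or above which the authors listed a target when both arrays reached it. Of 26419 targets, 11292 did so. As a further gauge of background, 1245 olfactory and vomeronasal receptor targets had a 95th percentile of 108 in TLC-S and 128 in control, so an intensity just above 100 is not secure. Over the 11292 targets, the median log2 ratio of TLC-S over control was 0.25, so a ratio near that size is close to the trend of the arrays. Ratios taken after a loess curve on signal removed this trend are given for the named genes whose direction or side of 2-fold they change, and for some others. Markers were unlike an acinar profile on both arrays, although the trypsinogens were bright. Of 20 acinar secretory genes with a target, 3, all trypsinogens (Prss1, Prss2 and Prss3), reached 100 on both arrays. The summed intensity of the list was 4635 in TLC-S and 29668 in control, and most of each sum came from these 3. In TLC-S, Prss1 was 8.85-fold, Prss2 8.81-fold and Prss3 7.21-fold lower, while the median log2 ratio of the 20 genes was -0.23. All 9 pan-leukocyte genes with a target reached 100 on both, with sums of 20846 in TLC-S and 22531 in control. All 3 B lymphocyte genes with a target did so too, as did 1 of 5 T lymphocyte and 2 of 7 myeloid genes. The same held for 3 of 8 acinar transcription factors, 2 of 8 epithelial and 1 of 6 endocrine genes. It held for 0 of 7 hepatocyte genes and 0 of 5 stellate or fibroblast genes. Some marker readings that reached 100 were still under the background gauge of their array. Among them were both readings of the B lymphocyte gene Ebf1 (102 in TLC-S and 120 in control). No marker was listed at 0. The part of these levels in the results below was not tested.

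Transcripts of 2 of the 10 receptors, Nr1i3 and Nr1h2, lay at 100 or more on both arrays, as did 10174 of all 15577 named genes. Cckar and S1pr2 did so on 1 array, and the other 6 stayed under 100 on both. Nr1i3 was lower in TLC-S by 2-fold or more, and no receptor was higher by that measure. That is 1 of 2 receptors lower and 0 of 2 higher, beside 4.41% lower and 9.95% higher among the 11292 targets that reached 100 on both. With no limit on intensity, 2 of 10 were 2-fold lower (Nr1i3 and Cckar) and 1 of 10 higher (Chrm3, under 100 on both arrays) by measured ratio, beside 5.37% lower and 8.67% higher over all genes (6.8% lower and 7.89% higher over all targets). The median log2 ratio of the 10 was 0.07, with 5 above and 5 below 0, and the median of all genes was 0.15. In RNA from a whole culture, fewer cells that express a gene and less of its RNA per cell cannot be told apart.

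**Figure D1:**
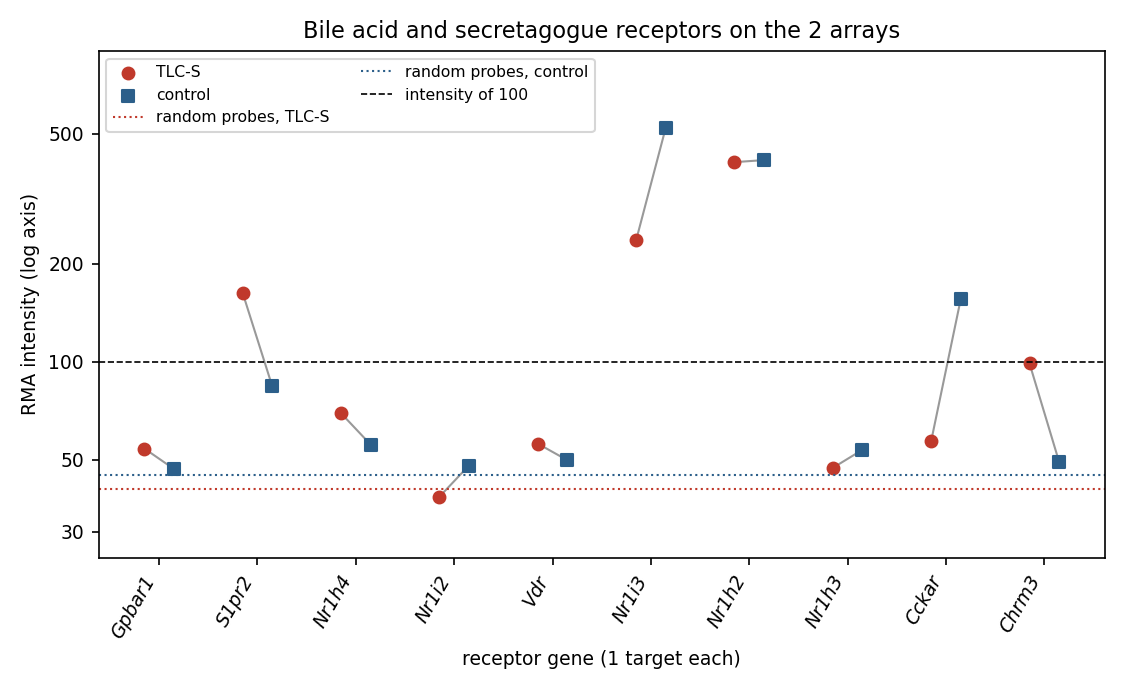
RMA intensity (log axis) of each of the 10 receptor genes on the TLC-S array (red circles) and the control array (blue squares), 1 array each. Dotted lines mark the random probes of each array and the dashed line an intensity of 100: Nr1i3 and Nr1h2 lie above it on both arrays, S1pr2 in TLC-S alone and Cckar in control alone.

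The upstream sequences of 3 receptors are shown because their readings differ in direction. Nr1i3 was lower in TLC-S, Nr1h2 nearly equal and S1pr2 higher, the last by a bound only, with its control value under 100. Each is the 250 bases before the gene's start in RefSeq (build GRCr8), written 5′ to 3′ along the gene, and capitals mark the motifs found. RefSeq sequences of this kind were matched for 8 of the 10 genes, and not for Cckar or Nr1h4. The Nr1i3 window is chr13:86165170-86165419 on the plus strand, the Nr1h2 window chr1:104183864-104184113 on the minus strand and the S1pr2 window chr8:27790345-27790594 on the minus strand.
Nr1i3: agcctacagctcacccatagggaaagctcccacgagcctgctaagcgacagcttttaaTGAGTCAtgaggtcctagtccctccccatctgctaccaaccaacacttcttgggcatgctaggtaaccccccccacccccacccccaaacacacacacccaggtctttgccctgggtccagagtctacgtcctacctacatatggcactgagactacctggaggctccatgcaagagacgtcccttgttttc
Nr1h2: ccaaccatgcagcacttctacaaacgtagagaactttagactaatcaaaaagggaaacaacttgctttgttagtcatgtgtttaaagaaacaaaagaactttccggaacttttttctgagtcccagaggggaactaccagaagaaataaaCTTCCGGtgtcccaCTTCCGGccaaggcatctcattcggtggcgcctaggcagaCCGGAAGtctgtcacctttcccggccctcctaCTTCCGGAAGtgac
S1pr2: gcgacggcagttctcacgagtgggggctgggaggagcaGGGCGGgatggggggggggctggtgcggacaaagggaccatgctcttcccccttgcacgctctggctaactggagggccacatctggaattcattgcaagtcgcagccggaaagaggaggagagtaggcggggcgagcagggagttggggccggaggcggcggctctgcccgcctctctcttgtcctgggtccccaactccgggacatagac
Both strands were searched for 7 motifs. The core element bound by nuclear receptors was written AGGTCA. The AP-1 site was written TGANTCA and the cyclic AMP response element TGACGTCA. The E box was searched as CACGTG, the GC box that Sp1 binds as GGGCGG and the TATA box as TATAAA. The core bound by ETS factors, CCGGAAG, was added after the Nr1h2 sequence was read. Nr1i3 held 1 AP-1 match, at positions -192 to -186 from the start, a motif in 6.34% of the 33469 windows of this length. Nr1h2 held 5 ETS core matches, 3 on the minus and 2 on the plus strand of the gene, the pair nearest the start overlapping each other, and 7.27% of all windows held at least 1. S1pr2 held 1 GC box, at positions -212 to -207, as 30.5% of windows did. None of the 3 held AGGTCA, which 14.1% of windows did. These are matches of letters in a short window, and the arrays measured no binding.

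Nr1i3 encodes CAR, which in liver drives the enzymes that hydroxylate and conjugate drugs and bile acids. Its intensity was 236 in TLC-S and 521 in control, 5.82 and 11.6 times the random probes of the same arrays. Both values stood clear of background, above 98.7% and 99.3% of the olfactory and vomeronasal receptor targets. Nr1i3 was thus 2.21-fold lower in TLC-S (log2 ratio -1.14), and the authors' deposited table of lower targets lists it with the same fold. Among the 1000 targets closest to it in mean signal, 4.8% were 2-fold lower and 14.5% were 2-fold higher, with a median log2 ratio of 0.33 and an SD of 0.79. Set against that local trend by loess, the log2 ratio was -1.46.

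Nr1h2 encodes LXR beta, the widely expressed sensor of oxysterols. It gave 409 in TLC-S and 416 in control, a log2 ratio of -0.02, so that the 2 arrays read it as nearly equal. The 1000 targets nearest to it in signal had a median log2 ratio of 0.33, and the loess value of Nr1h2 was -0.34. Its paralogue Nr1h3, LXR alpha, which in rodents is abundant in liver and macrophages, gave 47.2 in TLC-S and 53.6 in control. Nr1h3 lay within 1.2 times the random probes on both arrays, and no fold is given.

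The other nuclear receptors of bile acids were read close to background. Nr1h4, the FXR gene and the main nuclear sensor of bile acids in liver and ileum, gave 69.4 in TLC-S and 55.6 in control. Vdr, which also binds lithocholic acid, gave 56.0 in TLC-S and 49.8 in control. Nr1i2, the PXR gene, gave 38.5 in TLC-S, under the random probes of that array, and 48.0 in control. For all 3 an intensity under 100 on both arrays leaves only the statement that they were not above the limit in either, and no fold is given.

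The surface receptors of bile acids differed from each other in what could be read. Gpbar1 gave 54.1 in TLC-S and 46.8 in control, at the 72.5th and 55.3rd percentiles of the olfactory and vomeronasal receptor targets, so its transcript was not detectable above background on either array. S1pr2 gave 162 in TLC-S and 84.0 in control. The TLC-S value lay above 97.8% of those background targets and the control value above 89.2%. S1pr2 was at least 1.62-fold higher in TLC-S when the control value is raised to 100, and 1.93-fold by measured ratio. Ratios were wide at this signal: among the 1000 nearest targets 15% were 2-fold higher and 11.9% were 2-fold lower.

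Of the secretagogue receptors, Cckar could be read in control alone and Chrm3 on neither array. Cckar gave 57.0 in TLC-S and 155 in control, and was at least 1.55-fold lower in TLC-S (2.72-fold by measured ratio, log2 ratio -1.44). The control reading lay above 96.3% of the olfactory and vomeronasal receptor targets and the TLC-S reading above 76.5%. Chrm3 gave 98.7 in TLC-S, just under the limit, and 49.3 in control, so no fold is given. Near Cckar in signal 14.2% of targets were 2-fold lower.

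**Figure D2:**
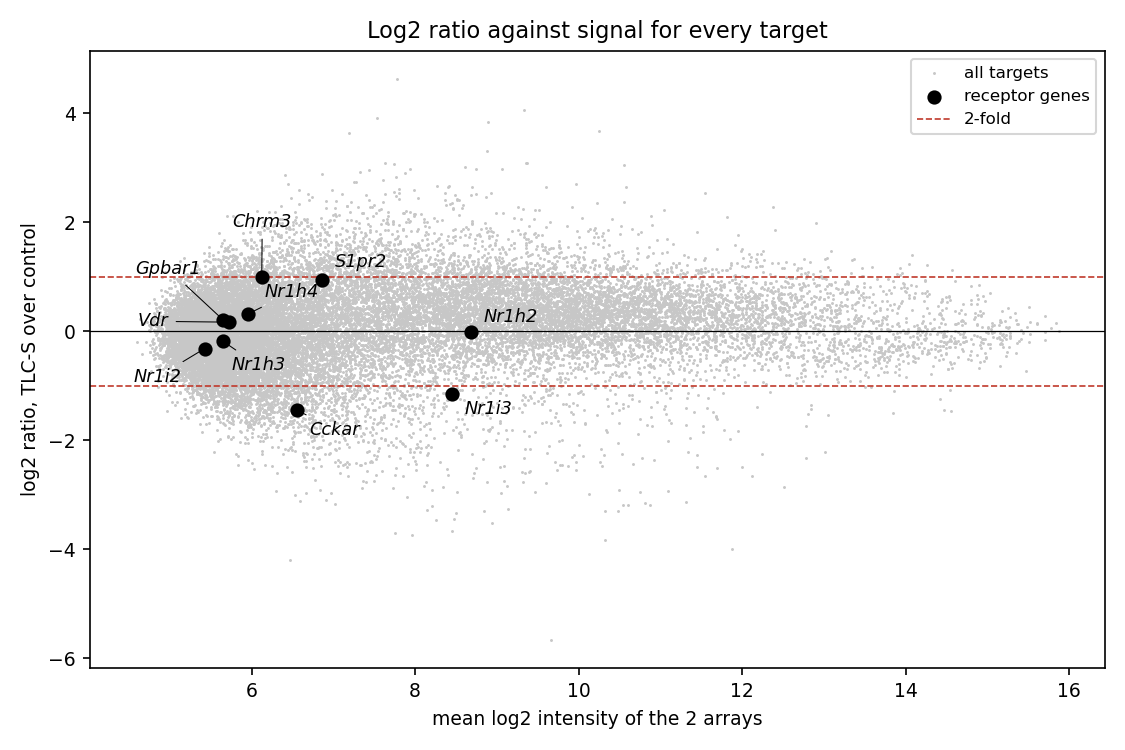
Log2 ratio of TLC-S over control against the mean log2 intensity of the 2 arrays, for all 26419 targets (grey) and the 10 receptor genes (black, labelled). Of the pair of receptors at 100 or more on both arrays, Nr1i3 lies at -1.14 and Nr1h2 at -0.02, whereas Cckar, Chrm3 and S1pr2 lie in the dim range where grey points spread past 2-fold in both directions.

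Low readings were common among close relatives of these receptors. In the muscarinic family Chrm1, Chrm2 and Chrm5 were under 100 on both arrays, like Chrm3, and no fold is given. Among sphingosine 1-phosphate receptors, S1pr1 gave 68.8 in TLC-S and 43.2 in control and S1pr5 61.0 in TLC-S and 38.8 in control, both under the limit. Cckbr, the receptor of gastrin and cholecystokinin, gave 55.0 in TLC-S and 37.5 in control, so neither cholecystokinin receptor reached 100 in TLC-S. Over the list of 23 other receptor genes with a target, somatostatin receptors among them, 17 were under 100 on both arrays. In that list 1 gene, the insulin receptor Insr, was at 100 or more on both, with its control value of 119 under the background gauge of 128. Of all 15577 named genes, 10174 were at 100 or more on both arrays. By bound, Sctr, the receptor of secretin, was at least 1.19-fold higher in TLC-S (119 in TLC-S and 33.7 in control), and the somatostatin receptors Sstr2 and Sstr3 at least 1.61-fold and 1.84-fold higher. Sstr5, which is outside the list and was singled out after its values were seen, gave 101 in TLC-S and 289 in control and was 2.88-fold lower, with its TLC-S value barely over the limit and under the background gauge of 108.

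**Figure D3:**
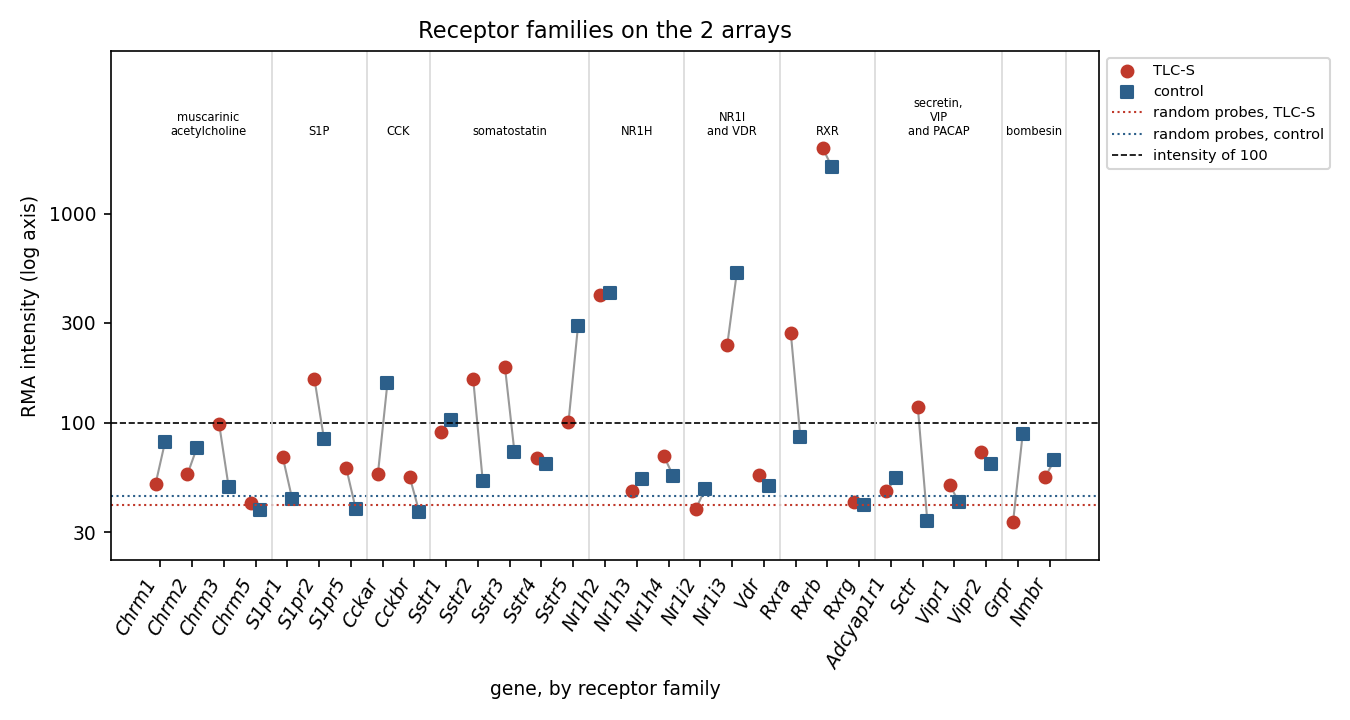
RMA intensity (log axis) on the TLC-S array (red circles) and the control array (blue squares) for receptor genes of 9 families, grouped by family, 1 array each. Dotted lines are the random probes and the dashed line is 100: most surface receptors lie under it on both arrays, while Rxrb, Nr1h2, Nr1i3 and Sstr5 lie above it on both, Sstr5 barely so in TLC-S.

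Genes that work with these receptors were read in 8 lists, each gene by its brightest target. Of 135 such genes with a target, 41 reached 100 on both arrays, 16 on 1 array and 78 on neither. Of the 41, 9 were 2-fold or more higher in TLC-S (22%) and 0 were 2-fold lower, beside 10% higher and 4.37% lower among all 10174 genes at this level. Their median log2 ratio was 0.40, and that of the 10174 genes 0.25. After loess, 5 of the 41 were 2-fold higher and 3 lower, and with 50 added to each intensity 7 were higher. The balance thus depended on scaling, as it did over all targets (69.3% of 2-fold targets higher as deposited, 39.6% after loess). These lists were chosen with earlier results of these data known.

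Of the partners of the nuclear receptors, Rxrb, 1 of the 3 RXR genes, gave 2060 in TLC-S and 1662 in control (log2 ratio 0.31 as deposited and 0.03 after loess), while Rxra gave 269 in TLC-S and 85.6 in control and was at least 2.69-fold higher. Rxra had no reading above the limit in control and Rxrg none on either array. The coactivator Ncoa1 was 1.93-fold higher, and the Mediator subunit Med1 1.35-fold lower. Of 12 genes in this list with a target, 6 reached 100 on both arrays. Of these 6, 0 passed 2-fold, beside 10% higher and 4.37% lower among all 10174 genes at this level. Nr0b2 (SHP), the repressor that FXR induces in liver, gave 37.0 in TLC-S, under the random probes of its array, and 27.0 in control, likewise.

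Of 13 genes with a target that LXRs are known to induce, 8 were at 100 or more on both arrays. Of these 8, 2 were 2-fold higher and 0 lower, beside 10% higher and 4.37% lower among all 10174 genes at this level. The 2 were the stearoyl-CoA desaturases Scd (538 in TLC-S and 121 in control, 4.44-fold) and Scd2 (2847 in TLC-S and 987 in control, 2.88-fold). Both are also induced by SREBP factors. The sterol exporter Abcg1 gave 289 in TLC-S and 524 in control (1.81-fold lower, log2 ratio -0.86 as deposited and -1.18 after loess), and Abcg5 was at least 1.53-fold lower. The median log2 ratio of the list was 0.04, and 0.40 over the 8 that reached 100 on both.

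Of 18 genes listed here as regulated by PXR, CAR or VDR, 3 reached 100 on both arrays. Of these 3, 2 were 2-fold higher and 0 lower, beside 10% higher and 4.37% lower among all 10174 genes at this level. Gadd45b, a stress-response gene that CAR induces in mouse liver, gave 761 in TLC-S and 143 in control (5.34-fold higher). Alas1, which encodes the first enzyme of haem synthesis, gave 535 in TLC-S and 120 in control (4.46-fold higher). The cytochrome Cyp2b3 was the third by size and was at least 1.07-fold lower, with its control value of 107 under the background gauge. The control values of Alas1, and of Scd above, were under that gauge too. Nr1i3 itself, as given above, was lower in TLC-S.

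Few genes of bile acid transport and synthesis could be read. Of 12 transport genes with a target, 10 were under 100 on both arrays. Abcc4, an exporter that carries sulfated bile acids among other anions, gave 678 in TLC-S and 308 in control, a log2 ratio of 1.14 (2.20-fold higher) and 0.82 after loess. Abcc2 was at least 1.12-fold lower, with its control value of 112 under the background gauge. Of 14 synthesis and conjugation genes, 11 were under 100 on both arrays. Hsd3b7, an enzyme of the early steps of bile acid synthesis, gave 63.9 in TLC-S and 280 in control and was at least 2.80-fold lower, while Scp2 and Hsd17b4, peroxisomal proteins with wider roles, were 1.32-fold and 1.05-fold higher. The control value of Scp2 was under the background gauge, and the log2 ratio of Hsd17b4 was 0.07 as deposited and -0.19 after loess, so its direction turned.

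Both peptide ligands of the cholecystokinin receptors gave lower readings in TLC-S, and Nmb, the neuromedin B gene, was 1.24-fold higher. Cck, the cholecystokinin gene, gave 259 in TLC-S and 439 in control (1.69-fold lower, log2 ratio -0.76 as deposited and -1.07 after loess). Gast, the gastrin gene, gave 71.3 in TLC-S and 277 in control and was at least 2.77-fold lower. Among enzymes that remove sphingosine 1-phosphate, the phosphatase Sgpp1 was 1.94-fold higher and the lyase Sgpl1 1.69-fold lower (log2 ratio -0.76 as deposited and -1.08 after loess). The control values of Nmb and Sgpp1 were under the background gauge. None of the 5 genes of this list at 100 or more on both arrays passed 2-fold as deposited. Of 31 genes of G proteins, their effectors and regulators, 15 were at 100 or more on both arrays. Of these 15, 4 were 2-fold higher and 0 lower, beside 10% higher and 4.37% lower among all 10174 genes at this level. Gnaq, the Gq subunit through which Cckar and Chrm3 signal, gave 487 in TLC-S and 320 in control (1.52-fold higher), and Plcb3, a phospholipase C downstream of it, gave 820 in TLC-S and 567 in control (1.44-fold higher). After loess their log2 ratios were 0.29 for Gnaq and 0.21 for Plcb3. The 4 that passed 2-fold were Rgs16, a brake on Gq and Gi signalling (2.57-fold), Gna12 (2.14-fold), Arrb2, which desensitises receptors (2.09-fold), and Gnai3 (2.02-fold). After loess Rgs16 alone of these 4 passed 2-fold, and the control value of Gna12 was under the background gauge. Grk3, a kinase of activated receptors, was at least 1.90-fold lower.

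**Figure D4:**
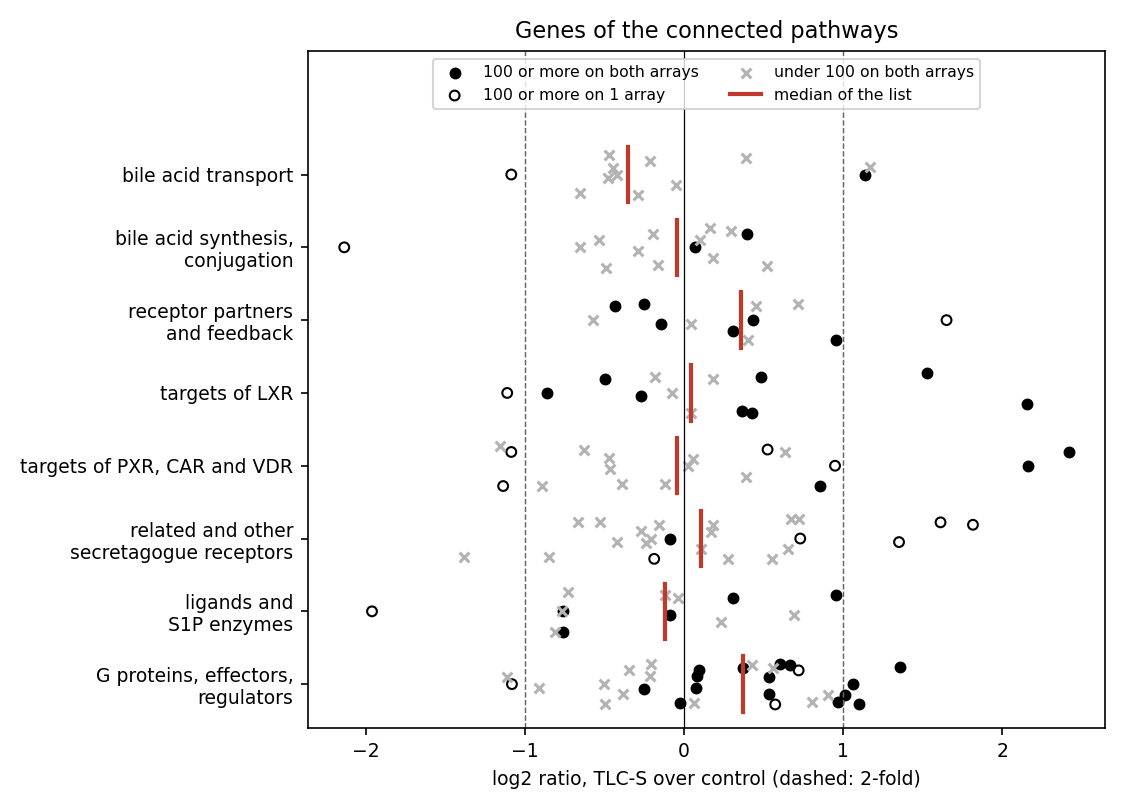
Log2 ratio of TLC-S over control for each gene of the 8 connected lists, with filled points at 100 or more on both arrays, open points on 1 array and grey crosses on neither. Red bars are list medians over all points, grey crosses included, from -0.35 for transport to 0.37 for G proteins. Grey crosses are 10 of the 12 genes for transport and 13 of the 31 for G proteins. All 9 filled points at or past 2-fold (dashed lines) lie on the higher side.

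Subtracting background moved Cckar, Chrm3 and S1pr2 more than Nr1h2 and Nr1i3. Nr1i3 kept a negative log2 ratio under every setting tried, from -1.46 after loess to -0.998 with 50 added to each intensity, where it missed 2-fold narrowly. Cckar ranged from -2.74 with the random-probe intensity subtracted to -0.94 with the offset, and S1pr2 from 1.63 to 0.66 under the same settings. These 3 receptors kept their sign throughout, and Nr1h2 stayed between -0.34 and -0.01.

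**Figure D5:**
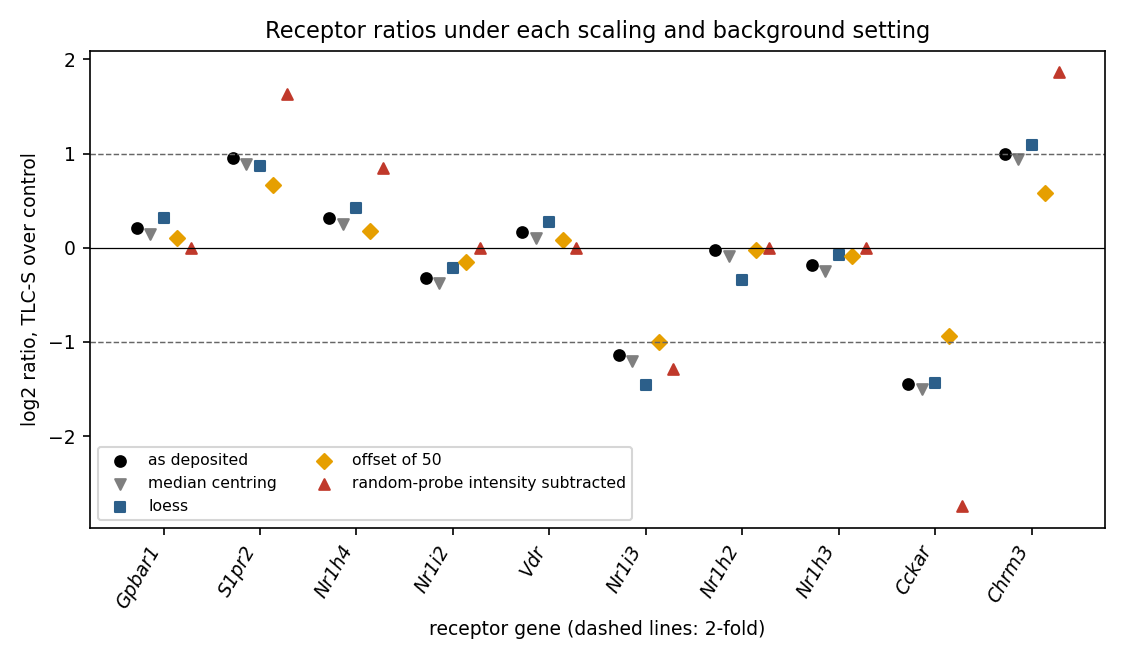
Log2 ratio of TLC-S over control for each receptor gene with the intensities as deposited and under 4 other settings of scaling and background. Subtracting the random-probe intensity (red triangles) moves the dim genes Cckar, Chrm3 and S1pr2 the furthest from 0, and sets Gpbar1, Nr1i2, Vdr and Nr1h3 to 0 because both their values fall to the floor of 16, which the control values of Chrm3 and Nr1h4 also meet.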

How the data were processed

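Complementary DNA made from total RNA of the AR42J cultures carried the dye Cy3 and was read on NimbleGen one-colour arrays, 1 for TLC-S and 1 for control, per the labels' protocols. The authors deposited 1 linear intensity per target and array, made with RMA per the submitters' processing notes; neither its version nor how background was handled is given in the sources used here. The authors' deposited tables also give each listed fold as a ratio and as log2, per the file headers. The receptors and gene lists were chosen with earlier results of these data known.

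Names came from RefSeq's genes of assembly GRCr8, matched on accession and then on gene number, and otherwise from the symbol the authors' table gives: 16341 of 26419 were named and 10078 were not. A gene with several targets was read by the one with the highest mean log2 intensity. Every log2 ratio has TLC-S on top. A gene under 100 on 1 array is given as a bound against 100, and under 100 on both no fold is given. Named genes are the 10 receptors, the 3 largest absolute ratios of each list among genes at 100 or more on at least 1 array, and Rxra, Nr0b2, Gnaq, Cckbr and Plcb3. Other genes named with values were chosen after their values were seen. Loess used a span of 0.3 and 3 robust iterations and was checked on simulated data. Tried as alternatives were loess, median centring, the authors' table, the series values, random-probe subtraction (floor of 16), an offset of 50, thresholds of 1.5-fold and 3-fold, no limit, and the mean or dimmest target. The number of unmapped columns of array values was 0. The software was statsmodels 0.14.6 for loess, scipy 1.17.1 for intervals, matplotlib 3.10.9 for plots, and pandas 2.3.3 and numpy 2.4.6 under Python 3.11.15 for the rest.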

Additional observations from a re-analysis of the deposited data

How the results depend on the processing

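No paired analysis was possible because TLC-S and control had 1 array each, which also left no replicate to omit. The limit at the 95th percentile of olfactory and vomeronasal receptor targets was chosen after the data were seen. Of the alternative values, 171 stayed within the spread used for them and 27 moved. For a single gene the spread was the SD of 0.42 between targets of 1 gene. That SD came from 580 genes with several targets at 100 or more on both arrays, a level that 2 of the 10 receptors reached. For a list's median the spread was the exact binomial 95% interval, and for a count 1.5 times. The percent of 2-fold targets that were higher had a narrower spread than 1.5 times. Values of 63.4 and 72.2 counted as moved from 69.3, while 67.2 and 67.4 did not. Some of the 171 could not move: the series values, and the choice of target for each receptor. No receptor's log2 ratio changed sign, though background subtraction set some to 0. Some list medians did change sign, ranging from -0.42 to 1.14 for transport and -0.11 to 0.23 for synthesis. Those for targets of LXR (-0.02 to 0.40), targets of PXR, CAR and VDR (-0.11 to 2.16) and the other receptors (-0.09 to 0.20) did so too. The series values equal the deposited intensities, and each receptor has 1 target, so the choice of target cannot move its ratio. With the random-probe intensity subtracted the log2 ratio was 1.63 for S1pr2 and -2.74 for Cckar, which an offset of 50 brought to -0.94. Of 2 receptors at 100 or more on both arrays, the 1 lower became 0 with the offset or at 3-fold; with no limit, 2 were lower and 1 higher. Against 1124 targets higher and 498 lower (69.3% higher), loess, whose fit itself sets the centre to 0, gave 513 and 784 (39.6%), 1.5-fold 3148 and 1094 (74.2%), 3-fold 236 and 202 (53.9%), and no limit, over more targets, 2084 and 1797 (53.7%). The percent higher was 63.4 after median centring and 72.2 with the random probes subtracted. Over genes at 100 or more on both arrays, or in the authors' table, the medians became 1.14 for bile acid transport, which is Abcc4 alone, and 2.16 for the targets of PXR, CAR and VDR, over 3 genes. The signal over background limits what can be said of the 6 receptors under 100 on both arrays.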

Other observations

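The nuclear receptor family as a whole was read by symbol after the data were seen. Of 41 nuclear receptor genes with a named target, 17 were at 100 or more on both arrays, 3 on 1 array and 21 on neither. Of the 17, 1 was 2-fold lower in TLC-S, Nr1i3, and 0 were 2-fold higher, beside 4.37% lower and 10% higher among all 10174 genes at this level. Their median log2 ratio was 0.08. Among the 3 read on 1 array were Nr3c1, the glucocorticoid receptor, at 166 in TLC-S and 59.6 in control (at least 1.66-fold higher), and Nr4a2, an immediate early orphan receptor, at 150 in TLC-S and 63.3 in control (at least 1.5-fold higher). The third was Rxra. Nr6a1, an orphan receptor of germ and stem cells read by a target of a predicted record, gave 106 in TLC-S and 195 in control, 1.84-fold lower as deposited, with a log2 ratio of -1.04 after loess. The TLC-S value of Nr6a1 was under the background gauge of 108.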
